A study of Homo sapiens with 9 samples.

Results

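The liver cancer stem cell markers PROM1, CD44, CD24, THY1, SOX9, SOX2, ALDH1A1, ANPEP and ICAM1 were followed by RNA-seq in SNU-398 cells. The markers, like the lists of related genes below, were chosen by gene name with earlier results of these data known. Shares of all genes set beside their calls are thus a description. All 9 of 9 marker names were found among the 60642 gene names of the deposited tables. Of these, 3 (CD24, SOX9 and ALDH1A1) passed edgeR's filter on low counts, as did 18574 genes in all, and 6 did not. SNU-398 is a mesenchymal-like hepatocellular carcinoma (HCC) line. It was compared as vector control (3 libraries), with overexpression of EMX1-FL, the full-length form of the homeobox gene EMX1 (3 libraries), and with overexpression of EMX1-X1, a splice form that ends in another terminal exon (3 libraries). The 2 forms were introduced with lentivirus, the cells of all 3 groups went through puromycin selection, and the control cells are labelled wild type. The text available does not state that any group was derived from 1 clone or that the libraries came from separate transductions, so the p-values measure only the spread between these libraries.

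Cancer stem cell markers are genes whose products have been used to sort or count tumour cells that start new tumours, resist drugs or spread. Most are cell surface proteins, such as PROM1 (CD133), CD44, CD24, THY1 (CD90), ANPEP (CD13) and ICAM1 (CD54), while ALDH1A1 is a cytosolic enzyme that oxidizes retinal, and SOX9 and SOX2 are transcription factors of progenitor cells. In liver, SOX9 and CD24 mark bile duct and progenitor cells rather than mature hepatocytes. The markers do not label the same cells, and cell lines differ in which of them they carry.

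Each library held 21562703 to 25197970 counted read pairs. The libraries were split into 2 clusters by the sign of the first principal component (39.56% of the variance), and these clusters crossed the groups. Scores ran from -49.9 to -18.6 in cluster A and from 17.9 to 50.8 in cluster B. Cluster A held vector control 1 and 2, EMX1-FL 2 and 3 and EMX1-X1 1, and cluster B held vector control 3, EMX1-FL 1 and EMX1-X1 2 and 3. The clusters come from the counts alone, and the labels do not say what they stand for. Differences of the tested markers are therefore also given within each cluster. EMX1 itself was at 9.34, 9.99 and 12.9 CPM (counts per 1000000 read pairs, TMM-normalized) in vector control 1 to 3, at 251, 135 and 145 CPM in EMX1-FL 1 to 3, and at 145, 294 and 288 CPM in EMX1-X1 1 to 3. Both overexpression groups stood above all control libraries. The counts are per gene, so the 2 forms, and ectopic and endogenous transcripts, are not told apart. The identity of the line was checked with markers: GPC3, an oncofetal proteoglycan of HCC, was at 17.9 ± 3.55 TPM (transcripts per 1000000, SD, n = 3) in the vector control, while AFP, TTR, KRT18 and FOXA2 were listed at 0 counts in all 9 libraries. Of the 12 hepatoma genes, 2 passed the filter. The 7 fibroblast and pericyte markers all passed it, led by LUM at 653 ± 188 TPM and RGS5 at 31.0 ± 4.27 TPM (SD, n = 3 each, vector control). Of these, 0 were called in any comparison by edgeR, DESeq2 or limma. In edgeR, 2.42%, 2.50% and 1.42% of all genes tested were called with EMX1-FL, with EMX1-X1 and between them. An unadjusted p under 0.05 in edgeR was found for 1, 2 and 2 of the 7, against 5.80%, 8.11% and 7.63% of all genes tested. The 7 markers summed to 501 to 852 TPM in the vector control, 555 to 1017 TPM in EMX1-FL and 612 to 935 TPM in EMX1-X1, overlapping ranges. The 6 markers of endothelium, with PECAM1 and TIE1 highest in the vector control at 0.0808 and 0.0383 TPM, summed to at most 0.465 TPM in any library. The 7 of leukocytes, with NKG7 at 1.13 and CD14 at 0.0643 TPM, summed to at most 3.4 TPM.

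The upstream sequence of the 2 abundant markers was read first, since EMX1 is a homeodomain protein and homeodomains commonly bind a TAAT core. RefSeq windows of the 250 bases before a transcript start (GRCh38.p14) were found for 7 of the 9 markers, 13 windows in all, and for SOX9 and THY1 no window was used. The windows shown are the most upstream start of CD24, the marker that changed, a more downstream start of CD24, and the start of ALDH1A1, the most abundant marker. They are written 5′ to 3′ on the minus strand, and capitals mark TAAT or its reverse complement ATTA.
CD24, chr6:106975628-106975877: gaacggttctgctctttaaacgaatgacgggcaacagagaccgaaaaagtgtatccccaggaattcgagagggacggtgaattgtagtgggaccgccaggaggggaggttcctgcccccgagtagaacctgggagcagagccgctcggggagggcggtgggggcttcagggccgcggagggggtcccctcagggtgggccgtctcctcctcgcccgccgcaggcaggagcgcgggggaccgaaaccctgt
CD24, chr6:106974040-106974289: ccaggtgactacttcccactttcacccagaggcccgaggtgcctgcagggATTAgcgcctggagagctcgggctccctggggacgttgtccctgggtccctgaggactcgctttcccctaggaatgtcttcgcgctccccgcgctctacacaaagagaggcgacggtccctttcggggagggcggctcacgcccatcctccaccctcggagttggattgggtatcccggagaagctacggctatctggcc
ALDH1A1, chr9:72953054-72953303: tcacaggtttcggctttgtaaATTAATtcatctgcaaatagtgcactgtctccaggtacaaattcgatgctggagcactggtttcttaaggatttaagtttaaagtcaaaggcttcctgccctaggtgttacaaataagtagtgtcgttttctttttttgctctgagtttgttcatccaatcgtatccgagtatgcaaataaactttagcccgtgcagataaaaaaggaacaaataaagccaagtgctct
The most upstream CD24 window lies directly outside the annotated gene and held neither TAAT nor ATTA. The downstream CD24 window lies between annotated exons of the gene and held 1 ATTA, which begins 200 bases before that start. The ALDH1A1 window, with a GC content of 38.4% against 65.6% in the most upstream CD24 window, held an ATTA and a TAAT that overlap. That window lies inside the annotated gene, which runs up to position 73080442, and covers 3 of its exon bases. Of the 13 windows of the markers, 7 held TAAT on either strand, against 47.4% of all 35116 windows, and 0 held the palindrome TAATTA, against 4.35% of all windows. A match is a description of letters and no evidence of binding.

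ALDH1A1 and CD24 were the only markers at more than 1 TPM on average. ALDH1A1 (chromosome 9, 72900671 to 73080442, minus strand) had a mean of 526 ± 59.6 TPM (SD, n = 3) in the vector control, which placed it at rank 144 of the 60642 genes. CD24 (chromosome 6, 106969831 to 106975627, minus strand) followed at 19.8 ± 0.179 TPM (SD, n = 3), at rank 7454. The next were SOX9 at 0.385 ± 0.106 TPM and SOX2 at 0.285 ± 0.252 TPM (SD, n = 3 each). The remaining 5 were below 0.15 TPM in the vector control. From SOX9 downwards, neighbours in this order did not differ beyond the spread of their libraries. All positions are those of GRCh38, as listed in the count table (Ensembl release 99).

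**Figure D1:**
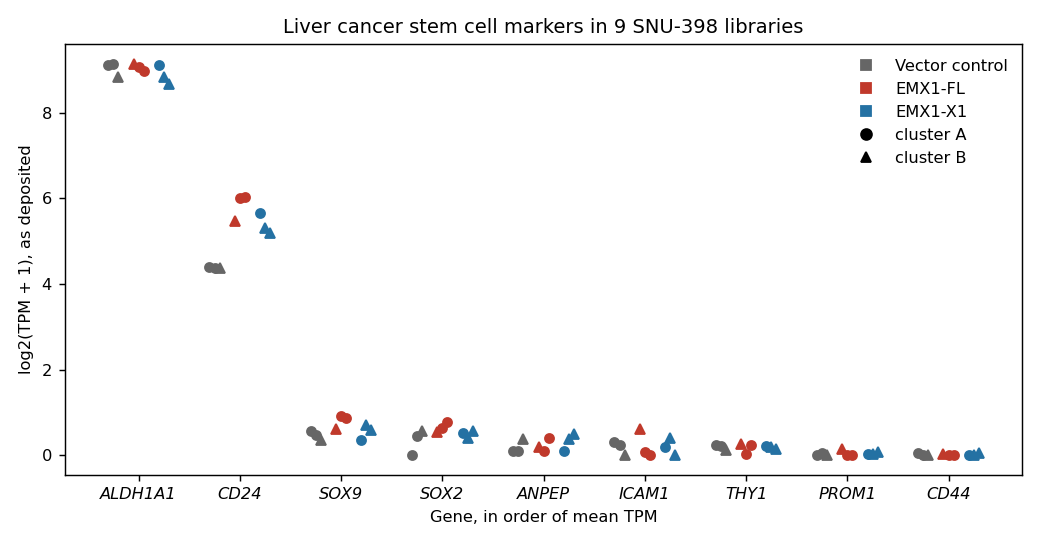
Deposited log2(TPM + 1) (vertical axis) of each of the 9 markers (horizontal axis, in order of mean TPM) in each of the 9 libraries, coloured by group and with the cluster of libraries as the symbol. ALDH1A1 lies between 8.67 and 9.15 in every library, the CD24 points of both overexpression groups lie above those of the vector control, and the other 7 markers stay below 1.

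CD24 was the marker that changed. CD24 is a small, heavily glycosylated surface protein, anchored by a lipid, that takes part in adhesion and is a ligand of Siglec-10. It was counted 388, 390 and 459 times in vector control 1 to 3. The counts were 827, 1251 and 1114 in EMX1-FL 1 to 3, and 972, 762 and 738 in EMX1-X1 1 to 3. Every library of either overexpression group was thus above every control library. On the CPM scale the vector control was at 16.6, 17.0 and 18.9, EMX1-FL at 36.7, 52.7 and 51.5, and EMX1-X1 at 40.4, 31.7 and 29.8. The control libraries lay close together, whereas each overexpression group had 1 library that stood apart from the other two, EMX1-FL 1 below and EMX1-X1 1 above.

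With EMX1-FL, CD24 was at 46.9 ± 8.91 CPM against 17.5 ± 1.23 CPM in the vector control (SD, n = 3 each). Its log2 fold change was 1.42 ± 0.203 (SE), a 2.68-fold rise with a 95% confidence interval from 1.97 to 3.64, at an adjusted p of 0.0372 (edgeR's quasi-likelihood F test, Benjamini-Hochberg adjusted). By p it was the gene at rank 8 of those tested. The call threshold was an unadjusted p under 0.05 together with a log2 fold change that reached 1 in either direction. CD24 was the 1 marker of the 3 tested that was called, against 2.42% of all genes tested (2.04% higher and 0.382% lower), and the 1 marker with an unadjusted p under 0.05, against 5.80%. CD24 also reached that fold change at an adjusted p under 0.05, as did 0.0700% of all genes tested. The groups did not overlap, with EMX1-FL above the control, which was so for 5.36% of all genes tested. The unadjusted p was 1.6e-05 in edgeR, and an exact permutation test (two-sided, on log2 CPM) gave p = 0.1, the smallest that 3 against 3 libraries allow. Within cluster A the difference of the mean log2 CPM was 1.63 (2 against 2 libraries), and within cluster B it was 0.95 (1 against 1). The adjusted p was not stable: over 19 other settings the log2 fold change stayed between 1.31 and 1.57 and the call was kept, while the adjusted p ran from 3.82e-07 to 0.365 and was under 0.05 in 8. With 1 library left out, the adjusted p was 0.00297 without EMX1-FL 1 and 0.0285 without EMX1-X1 1, and it was between 0.0736 and 0.365 without any 1 of the other 7.

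With EMX1-X1, CD24 was at 34.0 ± 5.68 CPM (SD, n = 3). Set against the vector control, its log2 fold change was 0.96 ± 0.202 (SE), a ratio of 1.94 with a 95% confidence interval from 1.43 to 2.63, at an adjusted p of 0.31 (edgeR's quasi-likelihood F test, Benjamini-Hochberg adjusted). The unadjusted p was 0.000508 in edgeR, and the exact permutation p was 0.1. The groups did not overlap, with EMX1-X1 above the control, which was so for 8.03% of all genes tested. The fold change was just under the threshold of 1, so that 0 of the 3 tested markers were called in this comparison (2.50% of all genes tested, 1.95% higher and 0.544% lower, and 0.00538% at an adjusted p under 0.05), and 1, CD24, had an unadjusted p under 0.05 (8.11% of all genes tested). DESeq2 called 0 markers too, at an adjusted p of 0.0121 for CD24, and limma on log2(TPM + 1) called 1, CD24, at a log2 fold change of 1.01. The cluster of libraries as a covariate gave 1.02 at an adjusted p of 0.0103. Without EMX1-X1 2 or EMX1-X1 3 it was 1.00 or 1.04 and was called, and without EMX1-X1 1 it was 0.81. Within cluster A the difference of the mean log2 CPM was 1.26, and within cluster B it was 0.70.

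The 2 overexpression groups share the same control libraries, so they were also set against each other. CD24 was higher with EMX1-FL than with EMX1-X1 by a log2 difference of 0.47 ± 0.199 (SE, 95% confidence interval 0.032 to 0.90), at an adjusted p of 0.611 (edgeR's quasi-likelihood F test, Benjamini-Hochberg adjusted). EMX1-X1 1 (40.4 CPM) was above EMX1-FL 1 (36.7 CPM), so the groups overlapped. The unadjusted p was 0.0374 in edgeR, and the exact permutation p was 0.2. None of the 3 tested markers was called (1.42% of all genes tested were, 0.748% higher and 0.668% lower with EMX1-FL, and 0.00% at an adjusted p under 0.05), 1 had an unadjusted p under 0.05 (7.63% of all genes tested), and DESeq2 and limma called 0. Within the clusters the difference was 0.36 (A) and 0.26 (B). The difference in CD24 between the 2 forms did not pass after adjustment.

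**Figure D2:**
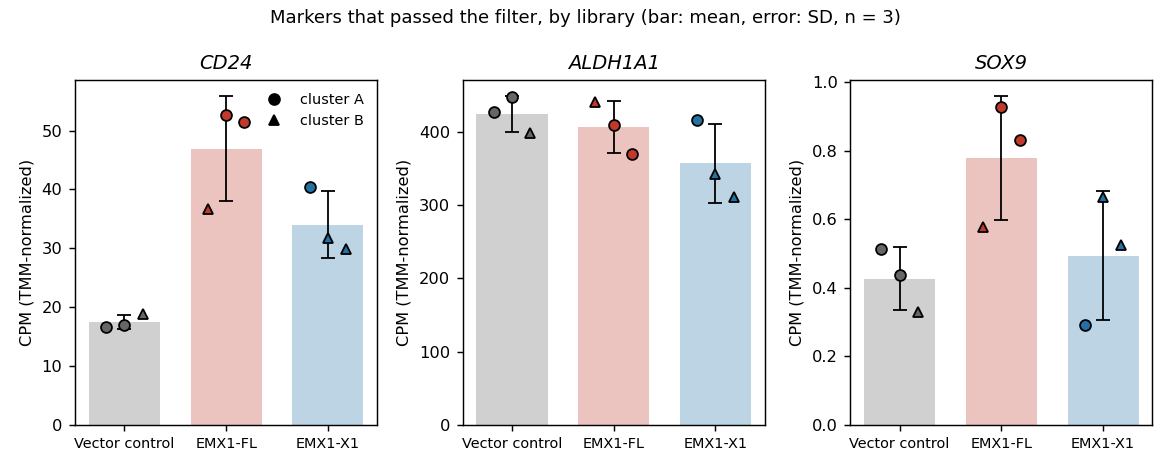
CPM (TMM-normalized, vertical axes starting at 0) of CD24, ALDH1A1 and SOX9 in each library, with the symbol giving the cluster. Bars are means and error bars SD (n = 3). CD24 lies between 16.6 and 18.9 CPM in the vector control and between 29.8 and 52.7 CPM in the overexpression groups, while the ALDH1A1 groups overlap.

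CD24 has no exon bases shared with other genes in the annotation. Its processed pseudogenes CD24P1 and CD24P4 had 0 counts and CD24P2 had 3 counts over all libraries, all in EMX1-X1, so few reads were assigned to these copies. How read pairs that match several copies were treated was not tested. The genes whose log2 CPM followed CD24 most closely over the 9 libraries were PIEZO2 (Pearson r 0.987), a mechanosensitive cation channel, and SLC1A6 (0.979), a glutamate transporter. PIEZO2 was at 7.60, 13.04 and 11.1 CPM in the vector control, EMX1-FL and EMX1-X1 means, and SLC1A6 at 5.59, 12.1 and 8.61 CPM. These genes were picked by their correlation with CD24, so that they share its order of the 3 groups follows largely from the choice. The correlations include the group differences and the clusters.

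ALDH1A1, the abundant marker, did not pass the threshold in any comparison. Its counts were 9970, 10251 and 9658 in vector control 1 to 3. They were 9925, 9726 and 8003 in EMX1-FL 1 to 3, and 10022, 8256 and 7718 in EMX1-X1 1 to 3. The groups overlapped in all 3 comparisons. The log2 fold change was -0.06 (95% confidence interval -0.40 to 0.28, adjusted p = 0.997) with EMX1-FL and -0.25 (95% confidence interval -0.59 to 0.094, adjusted p = 0.674) with EMX1-X1, by edgeR's quasi-likelihood F test, Benjamini-Hochberg adjusted. The intervals exclude a change of 1 log2 unit in either direction. The sign with EMX1-FL turned under 3 settings, up to 0.03. Between EMX1-FL and EMX1-X1 the log2 difference was 0.19 (95% confidence interval -0.16 to 0.53). Within clusters A and B the mean log2 CPM of ALDH1A1 differed by -0.17 and 0.15 with EMX1-FL. With EMX1-X1 it differed by -0.07 and -0.28, and between the forms by -0.10 and 0.43 (1 or 2 libraries on each side). EML5 (Pearson r 0.972 over 9 libraries), a microtubule-associated protein of the EMAP family, and FBXO43 (0.963), an inhibitor of the anaphase-promoting complex, were the genes most like it. In all 3 groups ALDH1A1 kept a rank between 144 and 194 of all genes by mean TPM.

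SOX9 (chromosome 17, 72121020 to 72126416, plus strand), a transcription factor of the biliary lineage, was close to the limit of the filter. It had 12, 10 and 8 counts in vector control 1 to 3. With EMX1-FL it had 13, 22 and 18, and with EMX1-X1 7, 16 and 13. All EMX1-FL libraries were above all control libraries (0.577 to 0.927 against 0.330 to 0.514 CPM), which was so in this direction for 5.36% of all genes tested, while the EMX1-X1 libraries overlapped with both. The log2 fold change was 0.86 (95% confidence interval -0.20 to 1.92, adjusted p = 0.982) with EMX1-FL and 0.21 (95% confidence interval -0.88 to 1.30, adjusted p = 0.904) with EMX1-X1, by edgeR's quasi-likelihood F test, Benjamini-Hochberg adjusted. Without EMX1-X1 2 the latter was -0.06. Between EMX1-FL and EMX1-X1 it was 0.65 (95% confidence interval -0.40 to 1.70). Within clusters A and B the mean log2 CPM of SOX9 differed by 0.78 and 0.67 with EMX1-FL. With EMX1-X1 it differed by -0.57 and 0.71, and between the forms by 1.36 and -0.03 (1 or 2 libraries on each side). A rise of 1 log2 unit in SOX9 could not be told from none in any of the 3 comparisons at this depth. AC016949.1 (Pearson r 0.910 over 9 libraries) and PGM5P2 (0.905), both low, were the genes most like it.

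**Figure D3:**
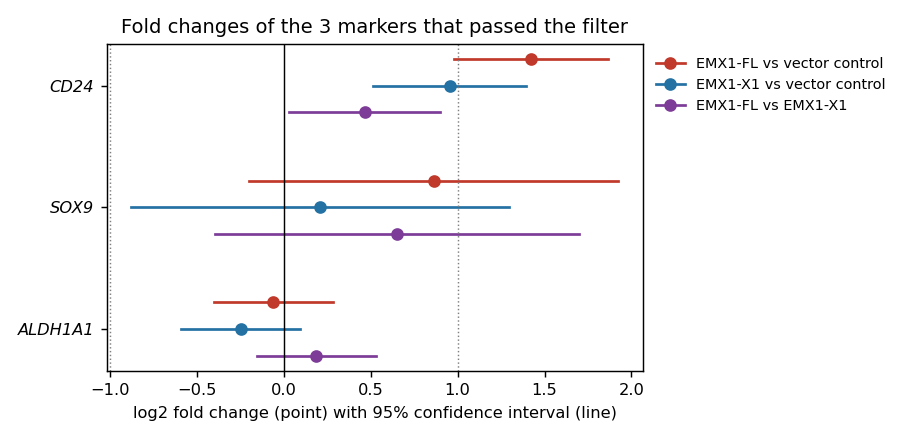
Log2 fold changes (horizontal axis, points) with 95% confidence intervals (lines) of CD24, SOX9 and ALDH1A1 in the 3 comparisons, with dotted lines at a log2 fold change of -1 and 1. The CD24 intervals lie above 0 in all 3 comparisons, those of SOX9 and ALDH1A1 include 0.

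The other 6 markers were at the edge of detection and were not tested. SOX2 (chromosome 3, 181711925 to 181714436, plus strand), a pluripotency factor, had 0, 6 and 9 counts in vector control 1 to 3. It had 7, 9 and 10 in EMX1-FL 1 to 3 and 7, 5 and 8 in EMX1-X1 1 to 3. Apart from the control library with none, the groups covered a like range. The two-sided exact permutation p was 0.2 with EMX1-FL and 0.8 with EMX1-X1, each against the vector control.

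THY1 (chromosome 11, 119417378 to 119424985, minus strand), a glycoprotein of fibroblasts, neurons and some HCC cells, had 7, 6 and 4 counts in the control libraries. It had 7, 1 and 6 in EMX1-FL and 6, 5 and 4 in EMX1-X1. THY1 summed to 17, 14 and 15 counts in the 3 groups, within the exact Poisson intervals of one another (9.90 to 27.2 for the vector control, counting error only). In the annotation, 10.7% of its exon bases are shared with AP003396.5.

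ANPEP (chromosome 15, 89784895 to 89815401, minus strand), a membrane aminopeptidase, had 2, 2 and 11 counts in vector control 1 to 3. It had 4, 2 and 9 in EMX1-FL 1 to 3 and 2, 9 and 13 in EMX1-X1 1 to 3. In each group the libraries differed among themselves more than the groups did: the group sums were 15, 15 and 24. ICAM1 (chromosome 19, 10271093 to 10286615, plus strand), the endothelial and epithelial ligand of the leukocyte integrin LFA-1, had 5, 4 and 0 counts in the control libraries, 11, 1 and 0 in EMX1-FL and 3, 7 and 0 in EMX1-X1. Library 3 of each group had none, and its exons share 25.4% of their bases with other genes.

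PROM1 (chromosome 4, 15963076 to 16084378, minus strand), a pentaspan protein of membrane protrusions, had 0, 2 and 0 counts in the vector control libraries, 5, 0 and 0 in EMX1-FL and 1, 1 and 3 in EMX1-X1. CD44 (chromosome 11, 35138870 to 35232402, plus strand), the hyaluronan receptor, had 2, 0 and 0 counts in the control libraries, 1, 0 and 0 in EMX1-FL and 0, 0 and 2 in EMX1-X1. CD44 had the fewest counts of the markers, 5 over 9 libraries (exact Poisson 95% interval 1.62 to 11.7). PROM1 had 12 (6.20 to 21.0), so the intervals overlap and the order of these markers is not settled. At this depth no difference between the groups could be shown for PROM1 or CD44. With no filter beyond 1 count in total, the adjusted p of the 6 low markers in edgeR's quasi-likelihood F test was at least 0.876 in every comparison.

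**Figure D4:**
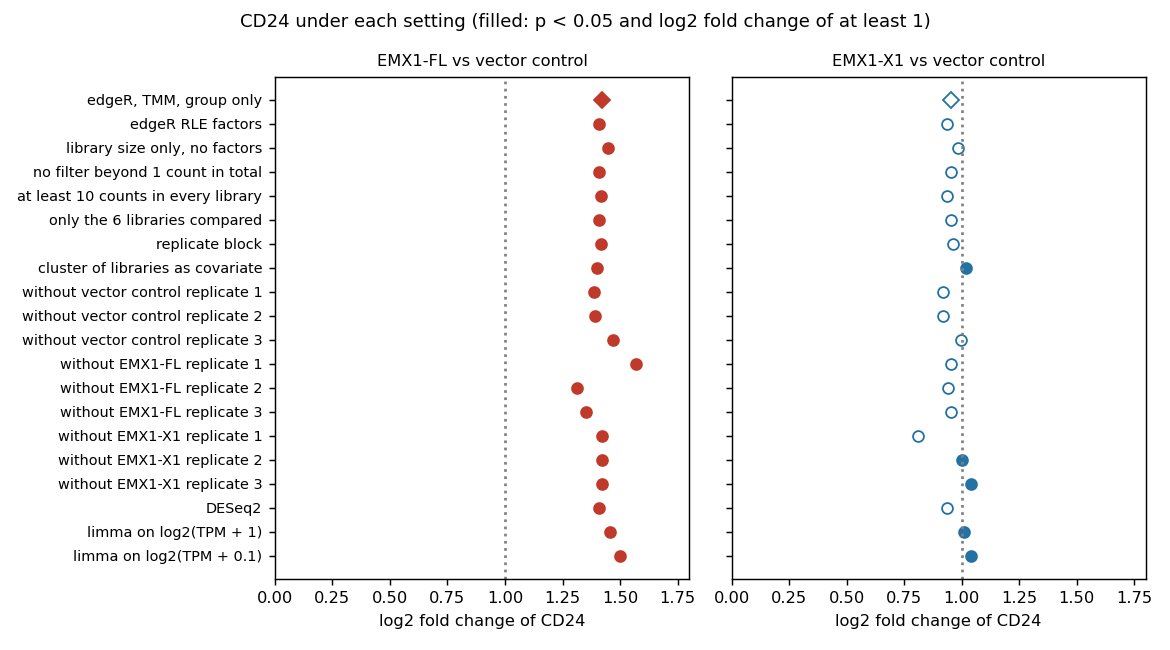
Log2 fold change of CD24 (horizontal axes) against the vector control for EMX1-FL and EMX1-X1 under each setting (vertical axis), filled where p is under 0.05 and the log2 fold change is at least 1 (dotted line). All EMX1-FL points are filled and lie between 1.31 and 1.57, while the EMX1-X1 points lie on both sides of 1, from 0.81 to 1.04.

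Other genes of the same pathways were counted from lists of relatives, receptors and partners. Of 18 other markers used for liver cancer stem or progenitor cells, 10 were tested. MYC (171 ± 14.9 TPM in the vector control) and BMI1 (66.2 ± 17.1 TPM, SD, n = 3 each), a growth-promoting transcription factor and a Polycomb protein, were the most abundant. Called were 1 higher and 0 lower with EMX1-FL, and 2 higher and 0 lower with EMX1-X1, where 2.04% and 1.95% of all genes tested were called higher. The called genes, KIT and KLF4, had fewer than 10 counts in every control library. They passed the filter on low counts only through overexpression libraries, where they are high. The shares are thus no fair comparison for them, and the direction of their calls is no separate result. The list had medians of 0.33 and 0.17 (log2) against 0.045 and 0.0098 over all genes tested. KIT, the stem cell factor receptor, had 7, 0 and 1 counts in the control libraries, 19, 17 and 17 in EMX1-FL and 18, 6 and 13 in EMX1-X1. KIT was called with EMX1-FL (log2 fold change 2.73, adjusted p = 0.457) and with EMX1-X1 (2.11, adjusted p = 0.575, edgeR's quasi-likelihood F test, Benjamini-Hochberg adjusted, in both). The groups overlapped only in the latter. All EMX1-FL libraries were above all control libraries for KIT, which was so for 5.36% of all genes tested. Since KIT passed the filter only through overexpression libraries, that share is no fair comparison for it. The EMX1-FL value of KIT ran from 2.16 to 4.89 with 1 library left out, the highest without vector control 1, and it was 0.51 and not called in limma on log2(TPM + 1). Its EMX1-X1 call was lost without vector control 2 (1.54) or 3 (1.70), or without EMX1-X1 1 (1.73) or 3 (2.09), and its value without vector control 1 was 4.28. KLF4, a pluripotency-associated transcription factor, had 4, 2 and 6 counts in vector control 1 to 3 against 13, 14 and 11 in EMX1-X1 1 to 3, a log2 fold change of 1.59 (adjusted p = 0.568 by edgeR's quasi-likelihood F test, Benjamini-Hochberg adjusted). In EMX1-FL 1 to 3 it had 10, 5 and 12 counts, a log2 fold change of 1.22 (adjusted p = 0.925, same test) that was not called. Between EMX1-FL and EMX1-X1 the log2 difference of KLF4 was -0.38 (adjusted p = 0.787, same test). The KLF4 call was lost without vector control 1 (1.60) or 2 (1.28) or without EMX1-X1 2 (1.51). It was also lost with no filter beyond 1 count in total (1.59) and in limma on log2(TPM + 1) (0.41).

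Partners of CD44, which itself had 5 counts, were counted next. Of 19 genes of hyaluronan turnover, ERM linkers and splicing, 12 were tested, with the linkers MSN (56.5 ± 4.69 TPM) and RDX (49.5 ± 12.3 TPM, SD, n = 3 each) highest in the vector control. HAS2, a hyaluronan synthase, was the 1 gene called with EMX1-FL, and 0 were called with EMX1-X1 (0 had an unadjusted p under 0.05 in edgeR, and DESeq2 and limma called 0), against 2.42% and 2.50% of all genes tested. HAS2 had 53, 65 and 56 counts in vector control 1 to 3, 95, 199 and 75 in EMX1-FL 1 to 3 and 102, 49 and 47 in EMX1-X1 1 to 3. Its log2 fold change with EMX1-FL was 1.12 (adjusted p = 0.621, edgeR's quasi-likelihood F test, Benjamini-Hochberg adjusted), and without EMX1-FL 2 it was 0.61 and was not called. In limma on log2(TPM + 1) it was 0.84, also not called.

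Of 18 other SOX genes 11 were tested, led by SOX4 (252 ± 15.2 TPM) and SOX12 (137 ± 9.78 TPM, SD, n = 3 each, vector control). SOX11, a factor of neural progenitors, had 36, 38 and 38 counts in the control libraries, 122, 104 and 84 in EMX1-FL and 115, 150 and 113 in EMX1-X1. All 6 overexpression libraries were above the 3 control libraries, as were those of EMX1-FL for 5.36% and those of EMX1-X1 for 8.03% of all genes tested. SOX11 was the 1 gene of the list called with either form, against 2.42% and 2.50% of all genes tested. SOX11 rose at a log2 fold change of 1.52 (adjusted p = 0.0627) with EMX1-FL and of 1.71 (adjusted p = 0.12) with EMX1-X1 by edgeR's quasi-likelihood F test, Benjamini-Hochberg adjusted. The difference between the 2 forms was -0.19 (adjusted p = 0.747, same test). Of all genes tested, 1.42% were called between the 2 forms, 0.748% higher and 0.668% lower with EMX1-FL. SOX18, an endothelial factor, was the 1 gene of the list called between them, at -1.07 (adjusted p = 0.611, same test). It had 463, 318 and 330 counts in EMX1-FL 1 to 3 and 436, 1062 and 1015 in EMX1-X1 1 to 3, so its high libraries were EMX1-X1 2 and 3 of cluster B. With the cluster as a covariate it was -0.77 and not called, and without EMX1-FL 2, EMX1-X1 2 or EMX1-X1 3 it was -0.95, -0.85 or -0.93 and not called.

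The relatives of the remaining markers gave no call. Of all genes tested, 2.42% were called with EMX1-FL, 2.50% with EMX1-X1 and 1.42% between them. Of 18 other aldehyde dehydrogenases, 13 were tested, with ALDH18A1 (110 ± 11.8 TPM) and ALDH9A1 (97.9 ± 3.64 TPM, SD, n = 3 each, vector control) highest. Their median log2 fold changes were 0.018 with EMX1-FL and 0.023 with EMX1-X1. Of 16 relatives and ligands of ICAM1 and NF-kB factors, 9 were tested, with NFKB2 at 94.4 ± 8.50 TPM and RELA at 62.2 ± 8.25 TPM (SD, n = 3 each), and medians of 0.28 with either form. Of 11 M1 aminopeptidases related to ANPEP, 7 were tested, with RNPEP at 96.2 ± 5.82 TPM and NPEPPS at 77.6 ± 7.39 TPM (SD, n = 3 each), and medians of -0.13 with EMX1-FL and 0.046 with EMX1-X1. DESeq2 and limma on log2(TPM + 1) also called 0 genes of these 3 lists. In edgeR 0 aldehyde dehydrogenases had an unadjusted p under 0.05 in any comparison. With EMX1-X1 this was so for 2 of the ICAM1 list, ICAM5 (log2 fold change 0.96) and RELB (0.79), against 8.11% of all genes tested, and between the 2 forms for 1 of the aminopeptidases, RNPEPL1 (-0.72), against 7.63%, named after their values were seen. Among the hepatoma genes ALB, the albumin gene, was called with both forms at low counts: it had 15, 10 and 18 counts in the control libraries, 22, 39 and 53 in EMX1-FL and 20, 38 and 38 in EMX1-X1. The log2 fold changes of ALB were 1.46 (adjusted p = 0.467) and 1.11 (adjusted p = 0.576) by edgeR's quasi-likelihood F test, Benjamini-Hochberg adjusted. Of all genes tested, 2.04% were called higher with EMX1-FL and 1.95% with EMX1-X1. The ALB call with EMX1-X1 was lost without vector control 1 (1.15) or 2 (0.90) or without EMX1-X1 2 (0.96) or 3 (0.98).

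**Figure D5:**
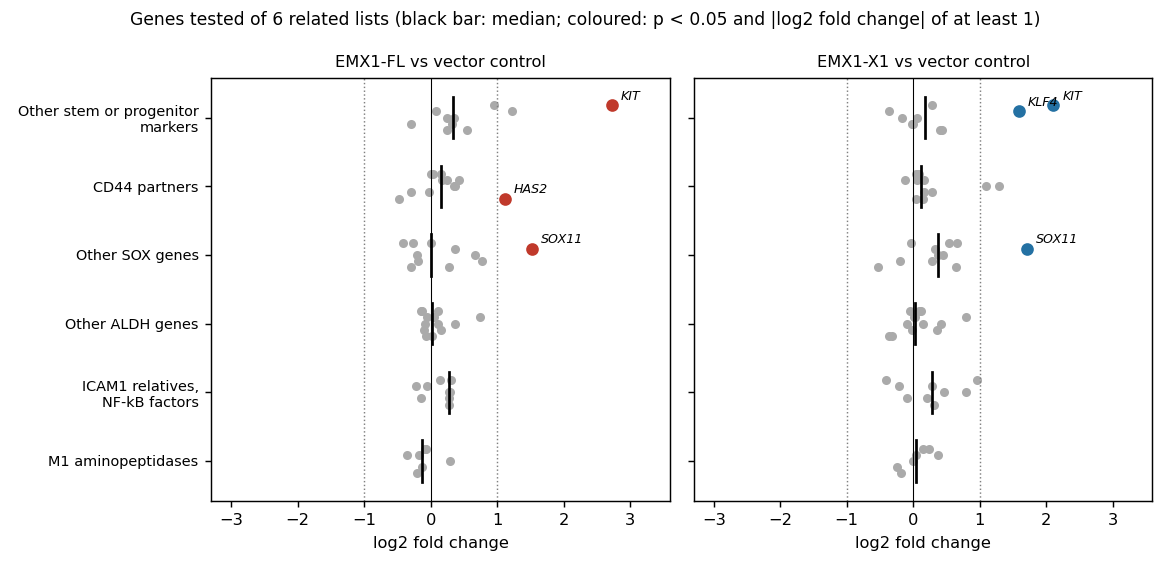
Log2 fold changes (horizontal axes) of the tested genes of 6 related lists (vertical axis) against the vector control, with black bars at the list medians and colour for called genes. KIT, HAS2 and SOX11 are coloured with EMX1-FL and KIT, KLF4 and SOX11 with EMX1-X1, and none of the coloured genes lies below 0.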

How the data were processed

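The sample labels gave 3 SNU-398 libraries each for the vector control, EMX1-FL and EMX1-X1. Raw counts per gene and log2(TPM + 1) values were deposited by the authors, and the log2 scale was checked by recomputation from the counts and listed gene lengths (largest difference 5e-06). The count header names featureCounts 2.0.1 with Ensembl release 99, the submitters' processing notes name STAR and featureCounts 2.0.6, and the methods of the study name RSEM. In R 4.3.3 the counts were fitted over 9 libraries with edgeR 4.0.16 (TMM, filterByExpr with a minimum count of 10, quasi-likelihood F test, group as the only term), with Benjamini-Hochberg adjustment over 18574 genes. Total counts of 21562703 to 25197970 per library set the precision. Alternatives were RLE factors, library size alone, other filters, only the 6 libraries compared, the replicate block, the cluster of libraries, each library left out, DESeq2 1.42.0, and limma 3.58.1 on the deposited log2 values with a pseudocount of 1 or 0.1. The calls used the fold change threshold of the study, and the edgeR fit was tested on simulated counts with known fold changes. Named genes are the 9 markers, the called genes and the 2 most abundant genes of each list, and the 2 genes most correlated with each tested marker; hepatoma genes at 0 were named as a check of identity, outside this rule. The members and lists were chosen with earlier results of these data known. Plots and annotation used Python 3.11.15 with pandas 2.3.3 and matplotlib 3.10.9.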

Additional observations from a re-analysis of the deposited data

How the results depend on the processing

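The log2 fold change of CD24 kept its direction in all 3 comparisons under all 19 alternatives. Leaving out 1 library at a time gave 1.31 to 1.57 with EMX1-FL, 0.81 to 1.04 with EMX1-X1, and 0.37 to 0.62 between them. The number of markers called with EMX1-FL was 1 under every alternative. With EMX1-X1 it was 0, and 1 with the cluster covariate, with limma at either pseudocount and with no fold change threshold, and 0 to 1 when 1 library was left out. Between EMX1-FL and EMX1-X1 it was 0, and 1 with no fold change threshold. The changed calls with EMX1-X1 all concern CD24, whose value lies near the threshold of 1. The sign of ALDH1A1 with EMX1-FL turned in limma at a pseudocount of 1 (0.0339) and of 0.1 (0.0339), and without EMX1-FL 3, over a range from -0.12 to 0.0030 when libraries were left out; that of SOX9 with EMX1-X1 turned without EMX1-X1 2, over a range from -0.0596 to 0.48. The cause was not tested. Among the genes of the lists, 0 of 9 called values reversed, and limma at a pseudocount of 1 took all 9 under the fold change threshold: with EMX1-FL KIT 0.51, HAS2 0.84, SOX11 0.83 and ALB 0.78, with EMX1-X1 KIT 0.32, KLF4 0.41, SOX11 0.96 and ALB 0.58, and between the forms SOX18 -0.97. Counts of all genes called ranged from 142 to 947 with EMX1-FL (450 as reported), from 177 to 962 with EMX1-X1 (464) and from 107 to 1125 between them (263), the last of these without EMX1-FL 1.

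The replicate numbers were not taken to pair the libraries: of 9 pairs of libraries with the same number, 3 correlated above 0.1, from -0.52 to 0.29, and 0 of 9 libraries correlated best with its own number. With the replicate block CD24 was at 1.42 (adjusted p = 0.335), 0.96 (adjusted p = 0.869) and 0.46 (adjusted p = 0.77) in the 3 comparisons by edgeR's quasi-likelihood test, and the block called 1, 0 and 0 markers. For the 6 markers under the filter, depth limits what can be shown.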

Other observations

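In each overexpression group the libraries of cluster B had more EMX1 and less CD24 than those of cluster A. EMX1-FL 1 had 251 CPM of EMX1 and 36.7 CPM of CD24, against 135 and 145 CPM of EMX1 and 52.7 and 51.5 CPM of CD24 in EMX1-FL 2 and 3. EMX1-X1 1 had 145 CPM of EMX1 and 40.4 CPM of CD24, against 294 and 288 CPM of EMX1 and 31.7 and 29.8 CPM of CD24 in EMX1-X1 2 and 3. The level of EMX1 and the cluster cannot be told apart. In the vector control the library of cluster B, control 3, had the highest value of both genes.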
